A study of Mus musculus with 12 samples.

Results

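Coinhibitory receptors are the surface proteins through which T cells receive restraining signals. The genes described here are the 8 named *Pdcd1*, *Ctla4*, *Lag3*, *Havcr2*, *Tigit*, *Btla*, *Cd160*, and *Cd200*, chosen by name from the 26608 genes counted in each library. All 8 had enough reads to be tested. *Cd200* encodes a ligand that acts through its receptor CD200R, and the other 7 encode receptors.

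The libraries are RNA sequencing libraries of sorted CD4+ YFP(FOXP3)- T cells, 1 per mouse, from spleen pooled with cervical and inguinal lymph nodes of mice 14 weeks old. The WT group (4 mice) carried the Foxp3-Cre allele, which makes YFP and Cre under the *Foxp3* gene, with intact *Tet2* and *Tet3*. The DKO-moderate (4 mice) and DKO-severe (4 mice) groups carried the same allele together with floxed *Tet2* and *Tet3*, and the study told them apart by the number of cells in spleen and lymph nodes. Cre deletes *Tet2* and *Tet3* in cells that have made *Foxp3*. The study adds that Foxp3-Cre may be leaky, so some conventional T cells may have lost these genes too. The sorted YFP- cells can mix former Treg cells that lost FOXP3 with conventional T cells, with or without intact *Tet2* and *Tet3*. Bulk values average over this mix, and a change in the share of cells that express a gene cannot be told apart from a change in RNA per cell.

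PD-1 (*Pdcd1*) and CTLA-4 (*Ctla4*) belong to the CD28 family. PD-1 recruits phosphatases to the activated T cell receptor when it binds PD-L1 or PD-L2, and CTLA-4 takes the ligands CD80 and CD86 away from the costimulator CD28. LAG-3 resembles CD4 and binds MHC class II, TIM-3 (*Havcr2*) binds galectin-9 among other ligands, TIGIT competes with CD226 for PVR and nectin-2, and BTLA and CD160 share the ligand HVEM (*Tnfrsf14*). Most of these receptors appear on T cells after activation and stay high under chronic stimulation, PD-1, TIGIT, and BTLA are also known from T follicular helper (Tfh) cells, and CTLA-4 and TIGIT from Treg cells.

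TET enzymes oxidize methylcytosine, which in mammals sits mostly at CG dinucleotides. The start-site windows of *Pdcd1*, *Ctla4*, *Tigit*, and *Cd200* are shown because these genes rose by more than 4-fold in both DKO groups. Each window runs from 250 bases before to 50 bases after a RefSeq start (GRCm38.p6) and is written 5′ to 3′ on the gene's strand with every CG in capitals.
Pdcd1: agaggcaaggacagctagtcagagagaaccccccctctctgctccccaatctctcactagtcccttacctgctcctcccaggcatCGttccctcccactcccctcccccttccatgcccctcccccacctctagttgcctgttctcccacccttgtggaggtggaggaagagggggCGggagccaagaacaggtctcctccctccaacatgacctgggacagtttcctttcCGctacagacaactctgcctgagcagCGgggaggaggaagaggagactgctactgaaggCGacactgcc
Ctla4: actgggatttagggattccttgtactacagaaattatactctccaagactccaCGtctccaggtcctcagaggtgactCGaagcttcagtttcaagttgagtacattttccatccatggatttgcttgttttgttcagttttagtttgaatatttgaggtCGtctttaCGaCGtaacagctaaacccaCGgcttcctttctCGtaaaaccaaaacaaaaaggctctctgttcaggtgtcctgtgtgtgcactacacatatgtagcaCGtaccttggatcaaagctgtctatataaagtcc
Tigit: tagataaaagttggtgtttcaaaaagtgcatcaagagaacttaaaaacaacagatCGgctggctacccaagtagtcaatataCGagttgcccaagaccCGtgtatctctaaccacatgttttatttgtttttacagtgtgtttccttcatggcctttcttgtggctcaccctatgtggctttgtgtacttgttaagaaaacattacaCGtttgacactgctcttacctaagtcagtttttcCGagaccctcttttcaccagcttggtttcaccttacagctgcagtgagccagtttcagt
Cd200: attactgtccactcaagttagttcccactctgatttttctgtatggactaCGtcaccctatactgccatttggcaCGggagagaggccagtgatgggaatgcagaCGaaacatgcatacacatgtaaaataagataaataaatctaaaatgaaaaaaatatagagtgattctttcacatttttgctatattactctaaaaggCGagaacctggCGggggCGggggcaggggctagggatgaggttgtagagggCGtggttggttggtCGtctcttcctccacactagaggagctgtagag
The *Pdcd1* window lies at chr1:94052504-94052803 (minus strand), that of *Ctla4* at chr1:60908775-60909074 (plus strand), that of *Tigit* at chr16:43664135-43664434 (minus strand), and that of *Cd200* at chr16:45409004-45409303 (minus strand). Windows were found for 7 of the 8 genes, all except *Lag3*. *Pdcd1* and *Tigit* had 5 CG in the window, and *Ctla4* and *Cd200* had 8, against a median of 7 over the 32851 windows of the table. *Btla* had 5, *Havcr2* had 3, and *Cd160* had 6 in each of its 2 windows. The NFAT core GGAAA, searched on both strands, occurred 2 times in the windows of *Pdcd1* and *Tigit*, 1 time in that of *Ctla4* and in 1 of *Cd160*, and not in those of *Cd200*, *Btla*, or *Havcr2*, and 61.3% of all windows held it. The AP-1 motif TGANTCA (7.81% of all windows) was found in the *Havcr2* window, the RUNX motif TGTGGT (16.8%) in those of *Tigit*, *Btla*, *Havcr2*, and *Cd160*, and the FOXO motif GTAAACA (3.65%) in none of them. These matches describe the letters of the windows, and neither methylation nor factor binding was measured in these libraries.

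Values are given as CPM, counts scaled to a common library total after TMM normalization, which evens out differences in library composition. Reads on genes ranged from 29254260 to 42133536 per library. The T cell genes *Cd3e* (353 to 517 CPM) and *Cd4* (864 to 1368 CPM) were present in all 12 libraries, and *Foxp3*, against which the cells were sorted, was at 0.130 to 3.10 CPM. The 8 T cell genes together summed to 4841 to 5518 CPM in WT, 5053 to 5603 CPM in DKO-moderate, and 3989 to 4589.7 CPM in DKO-severe. Of these genes 1 rose and 4 fell in DKO-severe against WT, where 26.6% of all genes tested rose and 25.9% fell. *Thy1* fell by 1.40 and *Cd2* by 0.69 on the log2 scale (edgeR adjusted p = 0.000399 and 6.37e-05). WT 3, DKO-severe 1, and DKO-severe 2 had the highest sums of 7 monocyte and macrophage genes, 184, 487, and 399 CPM against at most 146 CPM elsewhere. The 9 B cell genes summed to 245 CPM in WT 3 against at most 15.2 CPM in the other WT libraries, to 20.1 to 47.4 CPM in DKO-moderate, and to 68.1 to 408 CPM in DKO-severe. DKO-severe 1 and 2 held reads of neutrophils, with *S100a9* at 493 and 188 CPM against at most 5.43 CPM in the other libraries. The neutrophil genes summed to 0.00 to 1.47 CPM in WT, 0.159 to 8.29 CPM in DKO-moderate, and 9.12 to 2025 CPM in DKO-severe. Plasma cell genes summed to 61.0 to 161 CPM in WT against 198 to 359.7 CPM in DKO-severe, and dendritic cell genes to 0.776 to 9.92 against 11.5 to 18.5 CPM. Of the 5 dendritic cell genes, *Zbtb46* alone was called in DKO-severe against WT. Erythroid genes summed to 0.230 to 14.0 CPM in WT against 8.66 to 31.6 CPM in DKO-severe. The CD8 T cell genes *Cd8a* and *Cd8b1* summed to 16.8 to 26.7 against 1.03 to 13.2 CPM. Most of the WT sum was *Cd8b1*, at 16.6 to 20.3 CPM in WT against 1.01 to 6.15 CPM in DKO-severe. *Cd8a* went differently, at 0.201 to 0.273 CPM in WT 1, 2, and 4 and 6.47 CPM in WT 3. In DKO-severe *Cd8a* was at 3.15 CPM in library 1, higher in library 2, and 0.0476 and 0.0239 CPM in libraries 3 and 4. Counts of called genes among the 8 genes described here are therefore given with and without WT 3, DKO-severe 1, and DKO-severe 2. Counts for the other gene lists rest on all 12 libraries only. Y-linked transcripts showed that mice of both sexes were in each group, and the labels do not give the sex.

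In DKO-severe against WT, 7 of the 8 genes rose and none fell, with *Cd160* not past the threshold (edgeR quasi-likelihood test, Benjamini-Hochberg adjusted p under 0.05 over all 16035 genes tested). Over all genes, 26.6% rose, 25.9% fell, and 52.6% changed in either direction in this comparison. In DKO-moderate against WT, 6 rose and none fell, against 12.3% of all genes rising, 4.74% falling, and 17.1% changing. The median log2 fold change of the 8 genes was 3.35 in DKO-severe and 2.25 in DKO-moderate, beside medians of -0.0054 and 0.0 over all genes tested. The 2 comparisons share the WT libraries. Without WT 3, DKO-severe 1, and DKO-severe 2, DKO-severe still had 7 called genes, and DKO-moderate had 7 because *Havcr2* then passed. In that fit 6679 and 2562 of all 15497 genes tested passed in either direction in these comparisons.

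**Figure D1:**
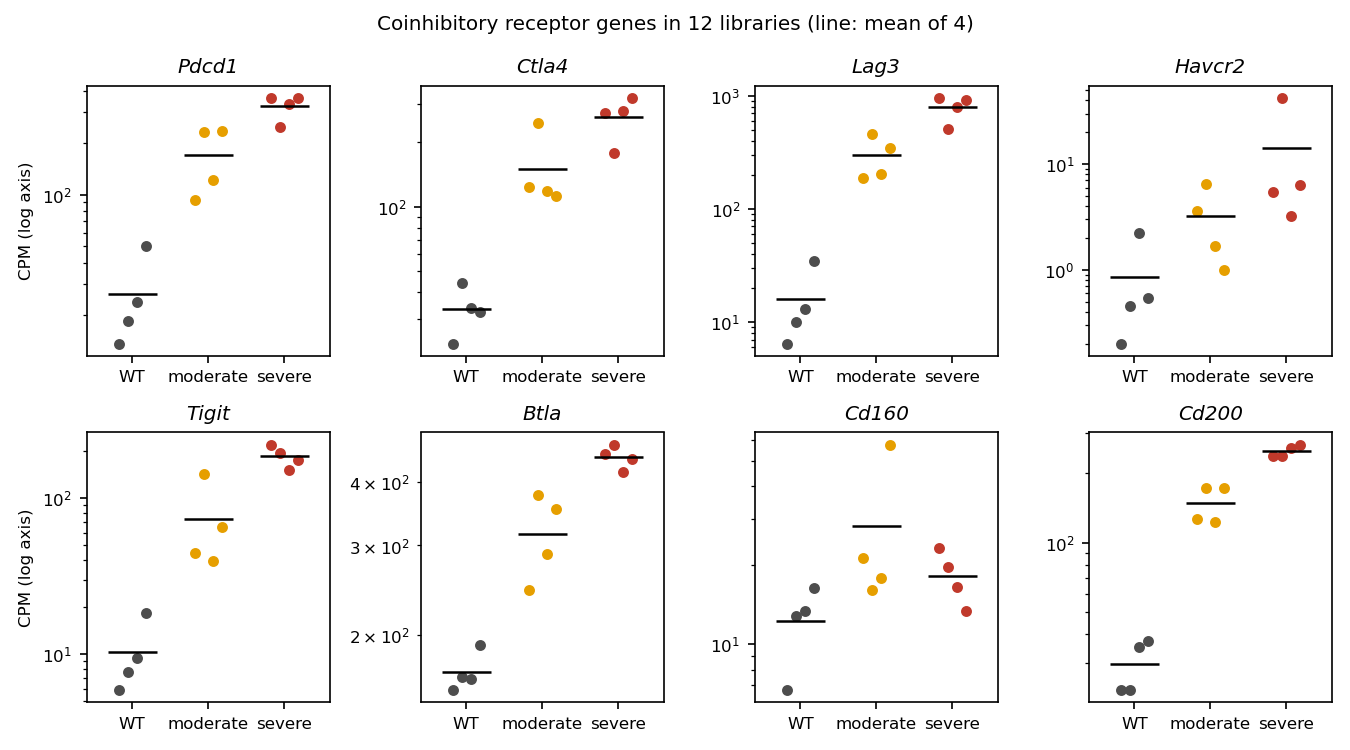
CPM of each of the 8 genes (vertical log axis) in the 4 WT, 4 DKO-moderate, and 4 DKO-severe libraries, with a line at the mean of each group. In 6 panels every DKO library lies above every WT library, while *Havcr2* and *Cd160* overlap between WT and DKO-moderate.

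The CPM ranges of DKO-severe and WT were apart, with DKO-severe higher, for 7 of the 8 genes, which was so for 24.6% of all genes tested (51.9% in either direction). Those of DKO-moderate and WT were apart for 6, against 14.6% of all genes (24.8% in either direction). The plot of CPM by library shows both, and the genes are taken below by the axis they belong to.

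*Pdcd1* (chr1:94038305-94052553, minus strand) measured 13.6, 18.4, 23.6, and 50.2 CPM across the WT libraries, 93.0, 232, 122, and 233 across DKO-moderate, and 362, 247, 336, and 363 across DKO-severe. The 3 groups did not overlap, and WT 4 was the highest of the WT libraries. Relative to WT it was higher by 2.68 on the log2 scale in DKO-moderate (SE 0.41, edgeR adjusted p = 0.00126) and by 3.62 in DKO-severe (SE 0.43, edgeR adjusted p = 3.81e-05), folds of 6.42 and 12.3. Between the DKO groups the log2 difference was 0.94 (edgeR adjusted p = 0.100), which did not pass. Its ligand gene *Pdcd1lg2*, for PD-L2, rose with log2 fold changes of 2.03 in DKO-moderate and 2.69 in DKO-severe (edgeR adjusted p = 0.00104 and 3e-05), from 3.07 to 8.86 CPM in WT to 35.2 to 41.1 CPM in DKO-severe. *Cd274*, for PD-L1, was at 43.6 to 60.0 CPM in WT and 44.7 to 53.2 CPM in DKO-severe and did not pass in either comparison (log2 fold changes 0.40 and -0.01, edgeR adjusted p = 0.0618 and 0.974).

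*Ctla4* (chr1:60887000-60915832, plus strand) measured 23.0, 44.1, 33.8, and 32.2 CPM across the WT libraries, 123, 247, 118, and 112 across DKO-moderate, and 274, 178, 280.5, and 321 across DKO-severe. Both DKO groups lay above WT, and they overlapped each other because DKO-moderate 2 stood above the other DKO-moderate libraries. Relative to WT it was higher by 2.17 on the log2 scale in DKO-moderate (SE 0.29, edgeR adjusted p = 0.000581) and by 2.99 in DKO-severe (SE 0.30, edgeR adjusted p = 1.43e-05). Its neighbours on chromosome 1 are its relatives *Cd28* and *Icos*, which encode costimulators. *Icos* rose from 102 to 151 CPM in WT to 353 to 726 CPM in DKO-moderate and 659 to 1217 CPM in DKO-severe (log2 fold changes 2.02 and 2.95, edgeR adjusted p = 0.000500 and 9.44e-06). *Cd28* had log2 fold changes of 0.41 and 0.47 (edgeR adjusted p = 0.0172 and 0.00220). Per kb of exon, *Ctla4* was at 0.193 to 0.344 times the level of *Cd28* in WT, 0.624 to 1.35 times in DKO-moderate, and 0.954 to 1.78 times in DKO-severe.

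CD80 and CD86 are the ligands over which CTLA-4 and CD28 compete, and both are best known from antigen-presenting cells. *Cd80* measured 0.0862, 0.194, 0.345, and 0.465 CPM across the WT libraries, 0.372, 1.17, 0.397, and 1.01 across DKO-moderate, and 7.95, 6.18, 13.6, and 11.9 across DKO-severe. The DKO-severe libraries were apart from all others, and the 2 highest, DKO-severe 3 and 4, were those of their group with the lowest monocyte and macrophage sums, 146 and 85.5 CPM. The dendritic cell genes summed to 1.54 to 2.91 CPM in DKO-moderate and 11.5 to 18.5 CPM in DKO-severe. Of these 5 genes *Zbtb46* alone was called between the DKO groups, where 9.41% of all genes rose, and 4 did not pass. *Zbtb46* had means of 1.12 CPM in DKO-moderate and 8.83 CPM in DKO-severe, and *Xcr1* 0.241 and 0.213 CPM. The part of other cells in the *Cd80* values was not tested. *Cd80* was higher in DKO-severe by 5.16 on the log2 scale against WT (edgeR adjusted p = 2.47e-05) and by 3.75 against DKO-moderate (edgeR adjusted p = 0.00269). *Cd86* was at 6.37 to 9.40 CPM in WT and 2.69 to 7.52 CPM in DKO-severe and did not pass (edgeR adjusted p = 0.115).

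*Lag3* (chr6:124904361-124911705, minus strand) showed the largest log2 fold change of the 8 genes in both comparisons with WT. It measured 6.44, 9.94, 13.2, and 34.6 CPM across the WT libraries, 186, 458, 205, and 344 across DKO-moderate, and 953, 513, 801, and 920.4 across DKO-severe. No groups overlapped, and the lowest DKO-moderate library stood well above the highest WT library. Relative to WT it was higher by 4.21 on the log2 scale in DKO-moderate (SE 0.51, edgeR adjusted p = 0.000373) and by 5.63 in DKO-severe (SE 0.55, edgeR adjusted p = 1.31e-05), folds of 18.6 and 49.6. Its relative *Cd4* lies 16140 bases away and was at 864 to 1166 CPM in WT, 1225 to 1368 CPM in DKO-moderate, and 938 to 1325 CPM in DKO-severe. Of the 3 comparisons, *Cd4* passed in DKO-moderate against WT alone, with a log2 fold change of 0.39 (edgeR adjusted p = 0.0471). Per kb of exon, *Lag3* was at 0.0142 to 0.0567 times *Cd4* in WT, 0.260 to 0.643 times in DKO-moderate, and 0.740 to 1.94 times in DKO-severe. *Ptms*, the gene on the other side of *Lag3*, rose as well (log2 fold changes 2.11 and 2.75, edgeR adjusted p = 0.00106 and 3.49e-05). *Fgl1*, for another LAG-3 ligand, had no read in any of the 12 libraries.

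*Tigit* (chr16:43648867-43664146, minus strand) measured 5.89, 7.68, 9.46, and 18.4 CPM across the WT libraries, 44.1, 143, 39.4, and 65.5 across DKO-moderate, and 219, 195, 151, and 175 across DKO-severe. The groups did not overlap, although DKO-moderate 2 came close to DKO-severe 3. Relative to WT it was higher by 2.82 on the log2 scale in DKO-moderate (SE 0.44, edgeR adjusted p = 0.00139) and by 4.16 in DKO-severe (SE 0.46, edgeR adjusted p = 2.77e-05). The receptors that share its ligands did not rise. *Cd96* was at 186 to 218 CPM in WT, 78.4 to 161 CPM in DKO-moderate, and 18.2 to 62.7 CPM in DKO-severe, where it fell by 2.12 on the log2 scale (edgeR adjusted p = 0.000205). *Cd226*, for the activating partner, was at 71.0 to 85.7 CPM in WT and 27.9 to 63.9 CPM in DKO-severe, and its log2 fold change of -0.62 did not pass (edgeR adjusted p = 0.0562). Per kb of exon, *Tigit* was at 0.441 to 1.15 times *Cd226* in WT, 2.20 to 13.8 times in DKO-moderate, and 12.6 to 41.8 times in DKO-severe.

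The ligand genes of TIGIT moved in opposite directions. *Pvr* was at 63.4 to 65.9 CPM in WT, 42.7 to 54.3 CPM in DKO-moderate, and 16.9 to 27.6 CPM in DKO-severe, where it fell by 1.46 on the log2 scale (edgeR adjusted p = 1.15e-05). Nectin-2, listed in the files as *Pvrl2*, had 6 reads over the 4 WT libraries and was at 0.159 to 1.54 CPM in DKO-moderate and 1.61 to 6.43 CPM in DKO-severe, a rise in both (edgeR adjusted p = 0.00227 and 4.13e-05). No fold is given for it because of the few WT reads.

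**Figure D2:**
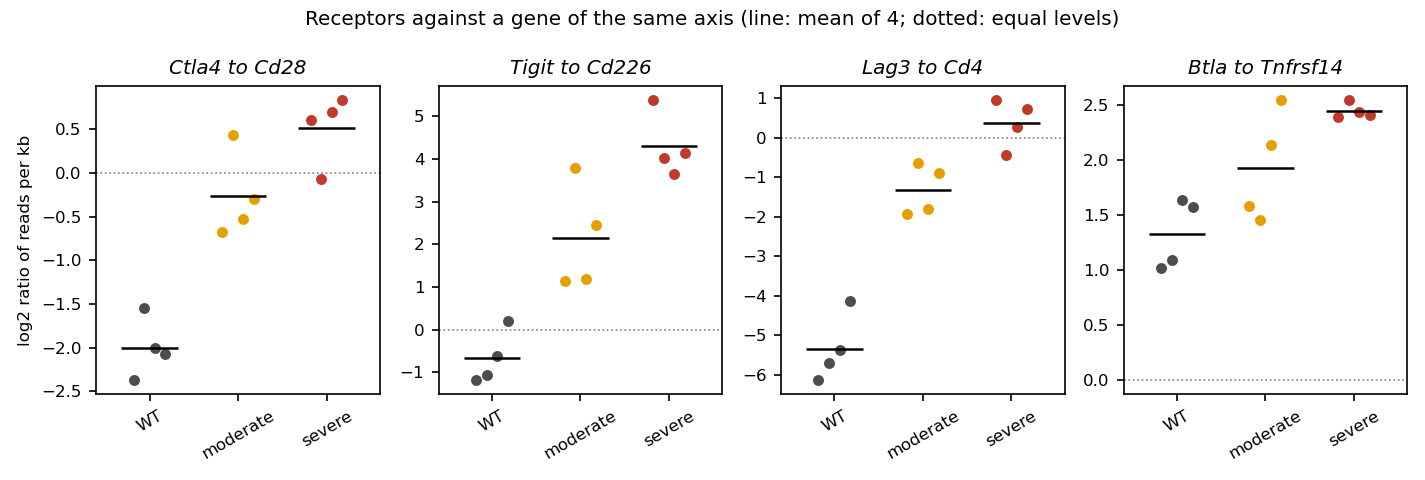
Log2 ratio of *Ctla4* to *Cd28*, *Tigit* to *Cd226*, *Lag3* to *Cd4*, and *Btla* to *Tnfrsf14*, from reads per kb of exon, in each library, with a line at the mean of 4 and a dotted line at equal levels. The 3 groups are apart for *Lag3* to *Cd4*, WT lies below both DKO groups for *Ctla4* to *Cd28* and *Tigit* to *Cd226*, and *Btla* to *Tnfrsf14* overlaps between WT and DKO-moderate.

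*Btla* (chr16:45224315-45257670, plus strand) had the highest WT level of the 8 genes. It measured 156, 166, 164, and 192 CPM across the WT libraries, 245, 377, 289, and 353 across DKO-moderate, and 454, 473, 418, and 444 across DKO-severe. The groups were apart, with a small spread in WT and DKO-severe. Relative to WT it was higher by 0.90 on the log2 scale in DKO-moderate (SE 0.13, edgeR adjusted p = 0.000809) and by 1.40 in DKO-severe (SE 0.13, edgeR adjusted p = 9.44e-06), the smallest changes of the genes that passed. B cells are known to express *Btla*, and in DKO-severe 2 and DKO-severe 3, whose B cell genes summed to 408 and 68.1 CPM, *Btla* was at 473 and 418 CPM. In WT 3, with a B cell sum of 245 CPM, it was at 164 CPM, inside the range of the other WT libraries. The part of B cells in the *Btla* values was not tested. The gene of its ligand HVEM, *Tnfrsf14*, was at 22.4 to 32.9 CPM in WT and 32.6 to 36.6 CPM in DKO-severe (log2 difference 0.27, edgeR adjusted p = 0.327). *Tnfsf14*, for the other HVEM ligand LIGHT, rose with log2 fold changes of 1.43 and 1.65 (edgeR adjusted p = 0.000939 and 5.6e-05). Per kb of exon, *Btla* was at 2.02 to 3.10 times *Tnfrsf14* in WT, 2.75 to 5.83 times in DKO-moderate, and 5.26 to 5.85 times in DKO-severe.

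*Cd160* (chr3:96798763-96829351, minus strand), which shares HVEM with BTLA and is well known from NK and CD8 T cells, measured 6.69, 12.8, 13.4, and 16.4 CPM across the WT libraries, 21.2, 16.2, 17.9, and 57.5 across DKO-moderate, and 23.2, 19.8, 16.5, and 13.5 across DKO-severe. All groups overlapped, and DKO-moderate 4 stood far above the rest. Its log2 difference from WT was 1.19 in DKO-moderate (SE 0.40, edgeR adjusted p = 0.0581) and 0.56 in DKO-severe (SE 0.39, edgeR adjusted p = 0.246). Without DKO-moderate 4 the first was 0.57 (edgeR adjusted p = 0.172), and without DKO-moderate 2 or DKO-moderate 3 it passed (edgeR adjusted p = 0.0476 and 0.0420). DKO-moderate 4 also had the highest level of *Klrb1c*, for the receptor NK1.1 of NK cells, at 179 CPM against 12.1 to 110.1 CPM in the other libraries, but *Ncr1*, which marks NK cells, was at 0.238 CPM there. The 5 NK cell genes summed to 189 CPM in that library, to 56.3, 138, and 54.1 CPM in DKO-moderate 1, 2, and 3, to 14.4 to 31.0 CPM in WT, and to 45.7 to 99.7 CPM in DKO-severe. Most of the sum was *Klrb1c*, at 179 CPM in DKO-moderate 4 and 110 CPM in DKO-moderate 2. The study counts *Klrb1c* among the Tfh-related genes raised in DKO cells, so the sum is a weak measure of NK cells. *Klra8* and *Klre1* of the same list were at most 0.632 and 2.83 CPM in any library. DKO-moderate 2, with the second highest of these sums, had the lowest *Cd160* of its group. The part of NK cells in the *Cd160* value was not tested.

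*Havcr2* (chr11:46454935-46481255, plus strand) was the scarcest of the genes. It had 7, 14, 77, and 20 reads in WT, 136, 208, 68, and 38 reads in DKO-moderate, and 168, 1376, 136, and 268 reads in DKO-severe. These correspond to 0.201, 0.452, 2.21, and 0.547 CPM across the WT libraries, 3.61, 6.56, 1.69, and 1.01 across DKO-moderate, and 5.45, 41.9, 3.24, and 6.41 across DKO-severe. DKO-severe lay above WT in all libraries, DKO-moderate overlapped both other groups, and DKO-severe 2 stood apart. The log2 difference of DKO-severe from WT was 4.05 (SE 1.01, edgeR adjusted p = 0.00513), and it was 2.57 without DKO-severe 2 (edgeR adjusted p = 0.0177). In DKO-moderate it was 1.90 and did not pass (SE 0.94, edgeR adjusted p = 0.183). It passed there, at 2.99, when WT 3, DKO-severe 1, and DKO-severe 2 were left out together (edgeR adjusted p = 0.0199).

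TIM-3 is also known from macrophages and dendritic cells, and the 7 monocyte and macrophage genes summed to 184 CPM in WT 3 and 399 CPM in DKO-severe 2, the libraries with the most *Havcr2* in their groups. They summed to 487 CPM in DKO-severe 1, where *Havcr2* was at 5.45 CPM. The part of such cells in the *Havcr2* values was not tested. *Lgals9*, for galectin-9, was at 173 to 210.2 CPM in WT, 106 to 169.7 CPM in DKO-moderate, and 49.5 to 85.6 CPM in DKO-severe, where it fell by 1.40 on the log2 scale (edgeR adjusted p = 6.06e-05).

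*Cd200* (chr16:45382135-45409053, minus strand) is the gene next to *Btla*, 124465 bases away. It measured 22.9, 22.9, 35.1, and 37.5 CPM across the WT libraries, 127, 172, 123, and 172 across DKO-moderate, and 237, 237, 257, and 266 across DKO-severe. The groups were far apart relative to their spread, and the adjusted p-values were the smallest of the 8 genes. Relative to WT it was higher by 2.33 on the log2 scale in DKO-moderate (SE 0.18, edgeR adjusted p = 6.94e-05) and by 3.07 in DKO-severe (SE 0.19, edgeR adjusted p = 3.1e-06). The gene of its receptor, *Cd200r1*, went the other way, from 25.9 to 27.8 CPM in WT to 11.9 to 22.8 CPM in DKO-moderate and 12.1 to 16.9 CPM in DKO-severe. *Cd200r1* fell by 0.63 and by 0.81 on the log2 scale (edgeR adjusted p = 0.0376 and 0.00349).

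Of the other neighbours, *Atg3* beside *Btla* fell in DKO-severe (log2 difference -0.50, edgeR adjusted p = 0.00152), as did *Zbtb20* beside *Tigit* (log2 difference -1.36, edgeR adjusted p = 0.000931). *Med7* beside *Havcr2* rose by 0.64 on the log2 scale (edgeR adjusted p = 0.00451). *Pdzk1*, which overlaps the start of *Cd160* on the opposite strand, head to head,, rose from 0.0645 to 0.191 CPM in WT to 1.32 to 2.95 CPM in DKO-severe (log2 difference 3.89, edgeR adjusted p = 9.7e-05), and the strand-specific counting keeps the pair apart.

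**Figure D3:**
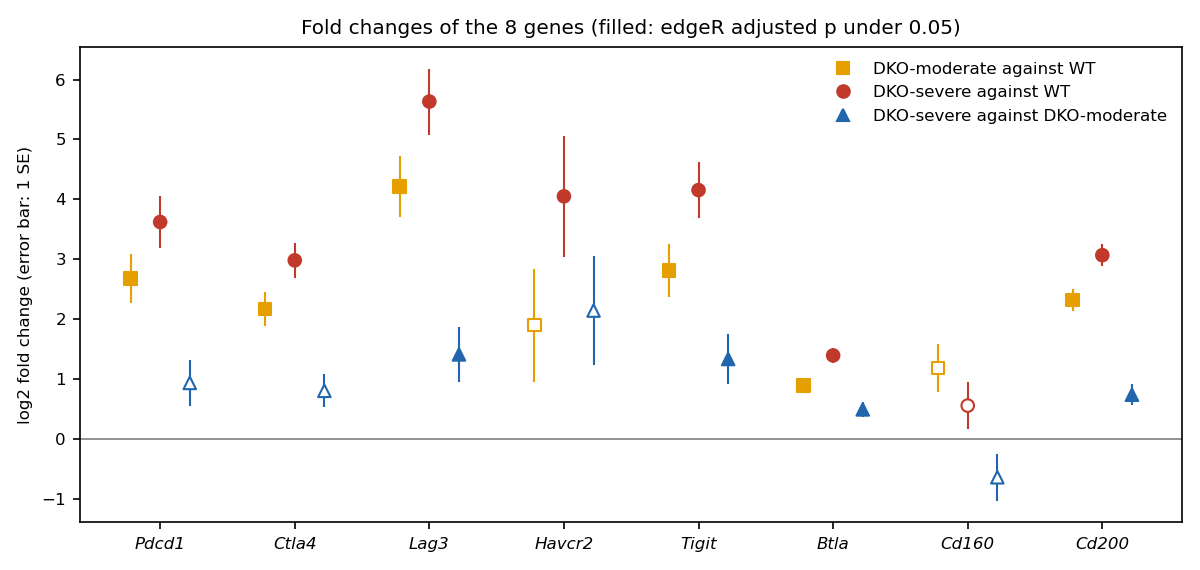
Log2 fold change of each of the 8 genes in the 3 comparisons, with bars of 1 standard error and filled symbols where the edgeR adjusted p was under 0.05. *Lag3* lies highest against WT, and *Cd160* is open in all comparisons.

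DKO-severe and DKO-moderate were compared directly to ask whether the receptors differ between these groups of DKO mice. *Lag3*, *Tigit*, *Btla*, and *Cd200* were higher in DKO-severe, 4 of the 8 genes, against 9.41% of all genes rising, 10.7% falling, and 20.1% changing. *Lag3* was higher by 1.42 on the log2 scale (SE 0.46, edgeR adjusted p = 0.0464) and *Tigit* by 1.34 (SE 0.41, edgeR adjusted p = 0.0382). *Cd200* was higher by 0.75 (SE 0.17, edgeR adjusted p = 0.0134) and *Btla* by 0.50 (SE 0.12, edgeR adjusted p = 0.0169). *Ctla4* (log2 difference 0.81, edgeR adjusted p = 0.0565), *Havcr2* (2.15, edgeR adjusted p = 0.111), and *Cd160* (-0.63, edgeR adjusted p = 0.263) did not pass, nor did *Pdcd1*. The CPM ranges of the DKO groups were apart for 5 genes, the 4 that passed and *Pdcd1*, which was so with DKO-severe higher for 9.77% of all genes (21.3% in either direction).

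Which genes passed in this comparison depended on single libraries, while the log2 differences with 1 library left out ranged from 1.25 to 1.70 for *Lag3*, 1.13 to 1.90 for *Tigit*, 0.40 to 0.60 for *Btla*, and 0.66 to 0.86 for *Cd200*. *Lag3* did not pass without WT 2 (edgeR adjusted p = 0.0530), WT 3 (0.0535), DKO-moderate 1 (0.124), DKO-moderate 3 (0.120), DKO-moderate 4 (0.0601), DKO-severe 1 (0.102), DKO-severe 3 (0.0776), or DKO-severe 4 (0.0907). *Tigit* did not pass without DKO-moderate 1 (edgeR adjusted p = 0.106), DKO-moderate 3 (0.100), DKO-moderate 4 (0.0690), or any 1 of DKO-severe 1 (0.0869), 2 (0.0573), 3 (0.0564), and 4 (0.0668). *Btla* was lost only without DKO-moderate 3 (edgeR adjusted p = 0.0527) among these 12 fits, and *Cd200* passed in all of them (largest edgeR adjusted p = 0.0451). *Ctla4* passed without DKO-moderate 2 (edgeR adjusted p = 0.00553) or DKO-severe 2 (0.0285), and *Pdcd1* without WT 4 (0.0450). The size of the *Havcr2* difference rested on DKO-severe 2, without which it was 0.67 on the log2 scale, and that of *Cd160* on DKO-moderate 4, without which it was 0.022.

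Without WT 3, DKO-severe 1, and DKO-severe 2 together, *Cd200* alone of the 8 genes was called between the DKO groups (edgeR adjusted p = 0.0384). Over all genes, 2055 of 15497 were called in that fit, a share near that of the 8 genes. DKO-severe 3 and 4 were then the only DKO-severe libraries. With a term for B cell genes none of the 8 passed, with edgeR adjusted p-values of 0.0641 for *Cd200*, 0.0750 for *Btla*, 0.0870 for *Lag3*, and 0.140 for *Tigit*. The log2 differences in that fit were 0.65, 0.47, 1.57, and 1.22. Over all genes, 1682 of 16035 passed with this term, against 3217 without it. The B cell sums of DKO-severe all lay above those of DKO-moderate, so the term may take up part of the group difference. That term draws on 9 genes, of which *Blk* was at 34.1 and 117 CPM in DKO-severe 3 and 4.

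**Figure D4:**
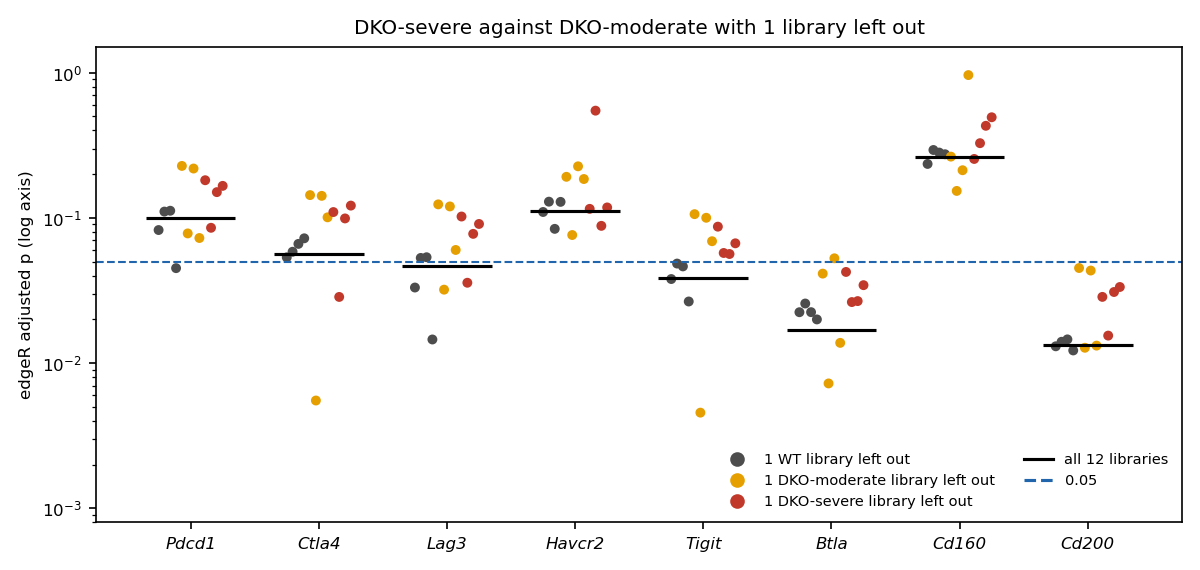
EdgeR adjusted p of each gene in DKO-severe against DKO-moderate (vertical log axis) with each of the 12 libraries left out in turn, colored by the group of the library left out, with a black line for all 12 libraries and a dashed line at 0.05. *Cd200* stays under the line in all fits, while *Lag3* and *Tigit* lie on both sides of it.

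On the log2 scale the DKO-moderate mean lay between 63.0% (*Btla*) and 75.5% (*Cd200*) of the way from WT to DKO-severe for the 6 genes called in both comparisons with WT. *Havcr2* was at 54.1%, and the DKO-moderate mean of *Cd160* was above that of DKO-severe.

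To compare levels between genes, CPM was divided by the length of exon in kb. In WT *Btla* came first, at 49.9 CPM per kb (mean, n = 4), apart from all other genes, and made up 37.5% to 56.2% of the summed level of the 8 genes. *Ctla4*, *Pdcd1*, *Tigit*, *Cd200*, *Lag3*, and *Cd160* followed at 14.3 down to 4.67 CPM per kb, with each pair of neighbours in this order overlapping, and *Havcr2* was last at 0.314. In DKO-moderate *Lag3* had the highest mean, 141 CPM per kb, overlapping *Btla* at 93.0. In DKO-severe *Lag3* was at 378 CPM per kb, above all other genes in its range, followed by *Tigit* at 201, *Pdcd1* at 169, *Btla* at 132, and *Ctla4* at 113, with overlap between neighbours.

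**Figure D5:**
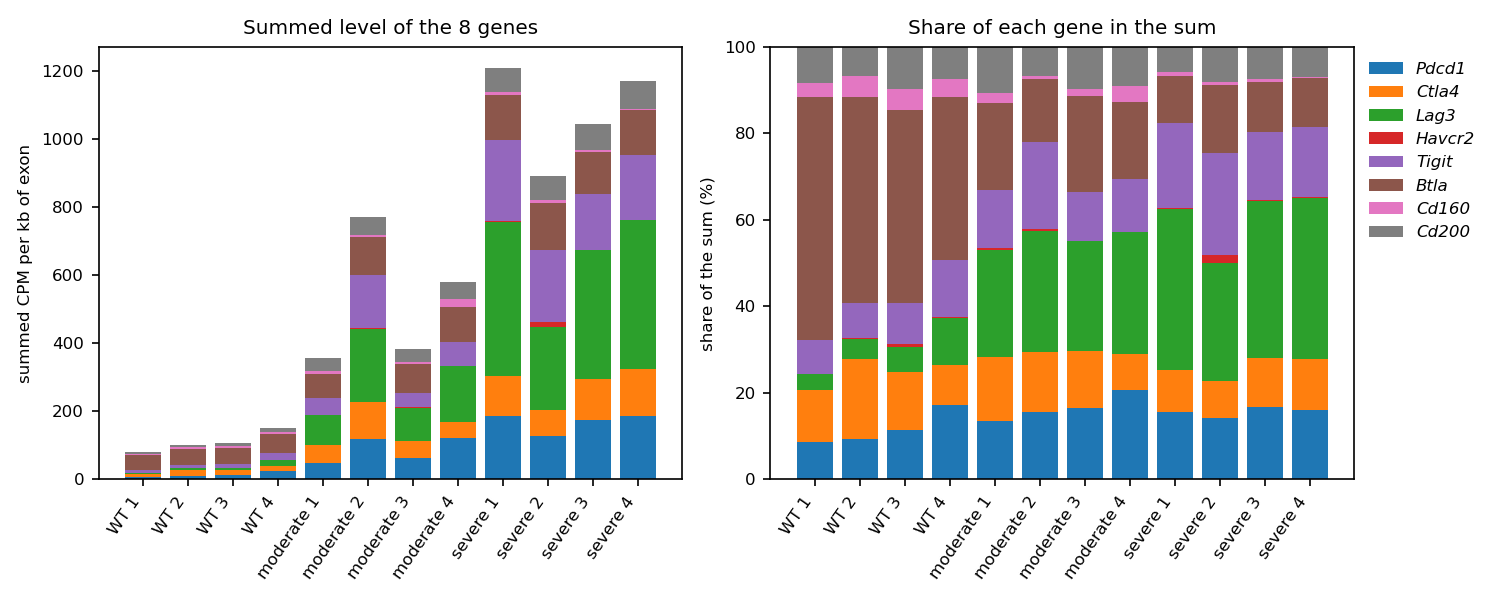
Summed CPM per kb of exon of the 8 genes in each library (left) and the share of each gene in that sum in percent (right). *Btla* holds the largest share in all 4 WT libraries and *Lag3* in all 8 DKO libraries, and the sum is largest in DKO-severe.

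The summed level reached 111 ± 28.8 CPM per kb (mean ± SD, n = 4) for WT, 523 ± 193 for DKO-moderate, and 1080.3 ± 143 for DKO-severe, and the 3 groups did not overlap. The share of *Lag3* in the sum was 3.73% to 10.9% in WT, 24.7% to 28.2% in DKO-moderate, and 27.2% to 37.3% in DKO-severe. The share of *Btla* was 14.4% to 22.2% in DKO-moderate and 11.04% to 15.6% in DKO-severe. *Pdcd1* made up 8.61% to 17.3% in WT and 14.3% to 16.6% in DKO-severe.

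WT 1 had the lowest CPM of its group for all 8 genes, and WT 4 had the highest for 6 of them. In DKO-moderate, library 2 was the highest for 5 genes and the lowest for *Cd160*, and library 4 was the highest for 3 and the lowest for *Ctla4* and *Havcr2*. In DKO-severe, library 2 was the highest for 2 genes and the lowest for 4, so the order of libraries was not shared by all genes there. In the same libraries the summed level of 7 Tfh marker genes (*Bcl6*, *Cxcr5*, *Tox2*, *Il21*, *Ascl2*, *Sh2d1a*, and *Icos*) was 198 CPM in WT 1 and 332 CPM in WT 4, and 1386 and 1184 CPM in DKO-moderate 2 and 4 against 621 and 743 CPM in DKO-moderate 1 and 3. All 7 Tfh genes rose in DKO-severe and 6 rose in DKO-moderate, against 26.6% and 12.3% of all genes.

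The 8 naive T cell genes summed to 4925 to 5649 CPM in WT, 2722 to 4289.5 CPM in DKO-moderate, and 1841 to 2409.5 CPM in DKO-severe. Of these genes 7 fell in DKO-severe against WT, where 25.9% of all genes fell. The 6 Treg genes summed to 63.8 to 169 CPM in WT and 449 to 502 CPM in DKO-severe. Among them *Il2ra*, *Ikzf2*, and *Nrp1* rose in DKO-severe, and *Foxp3* and *Ikzf4* fell. The part of these shifts in the receptor levels was not tested.

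For each receptor gene the 2 genes with the most similar pattern were found among 10510 genes, as the root mean square difference of log2 CPM over the 12 libraries after centring. They were *Jazf1* (0.209) and *Cyfip1* (0.225) for *Pdcd1*, *Nt5e* (0.229) and *Dcbld2* (0.260) for *Ctla4*, and *Fgf2* (0.219) and *Alcam* (0.320) for *Lag3*. *Tspan17* (0.297) and *Serp2* (0.301) came nearest to *Tigit*, *Gnaq* (0.225) and *Ptger2* (0.229) to *Cd200*, and *Nucb1* (0.123) and *Ctnna1* (0.126) to *Btla*. The chemokine genes *Ccl4* (0.575) and *Ccl3* (0.592) were nearest to *Havcr2*, and *Soat2* (0.360) and *Cxcl10* (0.365) to *Cd160*. Among the 8 genes the closest pairs were *Ctla4* with *Cd200* (0.394) and *Pdcd1* with *Tigit* (0.397), and the most distant was *Lag3* with *Cd160* (2.27).

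Of 9 other inhibitory receptors of T cells, 1 rose and 3 fell in DKO-severe against WT, where 26.6% of all genes rose and 25.9% fell. *Lilrb4* rose by 3.95 on the log2 scale (edgeR adjusted p = 0.000171). The value is uncertain because reads that fit a near-identical paralog equally well were not kept. *Lilrb4* was at 41.5, 53.7, 17.0, and 15.6 CPM in DKO-severe and highest in WT 3 among the WT libraries (4.25 CPM). Within WT and DKO-severe it was highest in the libraries with the highest monocyte and macrophage sums. In DKO-moderate, where those sums were 16.1 to 54.4 CPM, it was at 15.4, 12.5, 5.91, and 9.83 CPM. It rose there too (log2 fold change 2.40, edgeR adjusted p = 0.0117). The part of such cells in the *Lilrb4* value was not tested. *Cd101* fell by 1.34 (edgeR adjusted p = 0.000957) and *Cd5*, a damper of T cell receptor signalling, fell by 1.10 (edgeR adjusted p = 0.000756). Of the 10 ligand and counter-receptor genes tested, 4 rose and 3 fell in DKO-severe, all named above.

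Of 9 genes for proteins that carry receptor signals or move receptors, 3 rose and 2 fell in DKO-severe, with a median log2 fold change of 0.12, a share near the 52.6% of all genes that changed. *Ptpn11*, for the phosphatase SHP-2 that PD-1 and BTLA recruit, rose by 0.62 (edgeR adjusted p = 0.0153). *Inpp5d*, for the phosphatase SHIP-1, rose by 0.38 (edgeR adjusted p = 0.00583), and *Lck*, for the kinase of the T cell receptor, fell by 0.48 (edgeR adjusted p = 0.00163).

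Among 8 transcription factor genes known to act on coinhibitory receptor genes, 4 rose and none fell in both comparisons with WT. Over all genes, 26.6% rose and 25.9% fell in DKO-severe, and 12.3% rose and 4.74% fell in DKO-moderate. In DKO-severe *Maf* rose by 3.37 (edgeR adjusted p = 1.17e-05), *Batf* by 1.73 (edgeR adjusted p = 4.6e-05), and *Tox* by 1.64 on the log2 scale (edgeR adjusted p = 2.82e-05). The other was *Nfatc1*. *Prdm1*, *Nr4a1*, *Tbx21*, and *Eomes* did not pass.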

How the data were processed

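Per the labels and the methods of the study, the authors sequenced strand-specific libraries, used STAR 2.7.11 with the mm10 genome, kept reads that mapped to 1 place, and tallied genes by htseq-count in its reverse-stranded setting. The deposited values are raw read counts. The annotation behind them is not given in the sources used here. Lines that name no gene held 18.53% to 23.73% of a library and were left out. Each library held 29254260 to 42133536 reads on genes, and the SE of a log2 difference also reflects the spread between the libraries of a group.

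Genes with at least 10 reads in at least 1 condition were tested (16035). All 12 libraries entered 1 model in edgeR 4.0.16 (R 4.3.3; TMM, quasi-likelihood test), and p-values were adjusted by Benjamini-Hochberg. DESeq2 1.42.0, the tool of the study, and limma 3.58.1 were alternatives, beside other scalings, filters, added terms, and the omission of each library. SE is the absolute log2 fold change over the root of the F statistic. Positions and exon lengths came from GENCODE for GRCm38, which matched 24496 of 26608 genes, and start windows from RefSeq. The scripts were tested on simulated data. Duplicate deposits were looked for, and every pair of libraries in a group differed beyond sampling noise (lowest chi-square over its degrees of freedom 21.6).

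The genes, lists, and tests were chosen with earlier results of these data known. The text names all 8 genes, every ligand and every receptor that shares a ligand, up to 3 genes of each other list with the largest change past the threshold, neighbours past the threshold, the 2 genes nearest in pattern to each, and markers of other cell types with their sums. *Thy1*, *Cd2*, *Cd8a*, *Cd8b1*, *Foxp3*, *Il2ra*, *Ikzf2*, *Ikzf4*, *Nrp1*, *Klra8*, *Klre1*, *Zbtb46*, and *Xcr1* were named after their values were seen. Leaving out WT 3, DKO-severe 1, and DKO-severe 2 together was added after their marker genes had been seen.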

Additional observations from a re-analysis of the deposited data

Results flagged for a closer look

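In 24 groups of 4 libraries (8 genes in 3 groups), the highest or lowest library was tested with Dixon's ratio, the gap to the nearest library over the whole range, which marks about 1 in 20 groups by chance. It passed its critical value in 3. *Ctla4* was at 247.2 CPM in DKO-moderate 2, against 112 to 123 CPM in the other DKO-moderate libraries. *Havcr2* was at 41.9 CPM in DKO-severe 2, against 3.24 to 6.41 CPM in the others of its group. *Cd160* was at 57.5 CPM in DKO-moderate 4, against 16.2 to 21.2 CPM in the others. DKO-severe 2 also had the highest sum of the 9 B cell genes of all libraries (408 CPM), and its part in the *Havcr2* value was not tested.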

How the results depend on the processing

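The number of the 8 genes called in DKO-severe against WT was 6 to 7 under all 27 alternatives, and 5 to 7 in DKO-moderate against WT. With terms for B cell and neutrophil genes, *Havcr2* in DKO-severe against WT did not pass (edgeR adjusted p = 0.114). In that fit 2547 of 16035 genes passed, against 8428 without the terms. The neutrophil sums were at least 9.12 CPM in DKO-severe and at most 1.47 CPM in WT, so the fit cannot separate them from the group difference. *Cd160* in DKO-moderate passed in DESeq2 (adjusted p = 0.0132) and with library size alone (edgeR adjusted p = 0.0472), a scaling that moved the all-gene median in DKO-severe to 0.18.

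Between DKO-severe and DKO-moderate 4 genes passed. The count was 7 with DESeq2, 2 with a log2 fold change of at least 1, 1 without WT 3, DKO-severe 1, and DKO-severe 2, and 0 with an adjusted p under 0.01, with a term for B cell genes, or with terms for B cell and neutrophil genes. Leaving out each library in turn gave 1 to 5. Of all 16035 genes tested, only 1682 passed with the B cell term and 158 with both terms, against 3217 in the main fit. The B cell and neutrophil sums of DKO-severe all lay above those of DKO-moderate. These fits therefore cannot separate the terms from the difference between the groups, and the counts of 0 say little about the 8 genes. The sign turned in 4 uncalled values. *Cd160* in DKO-severe against WT was -0.21 with terms for B cell and neutrophil genes, and against DKO-moderate it ranged from -0.82 to 0.022 with 1 library left out, the last without DKO-moderate 4. *Havcr2* in DKO-severe against DKO-moderate was -0.026 with terms for B cell and neutrophil genes and -0.011 with the B cell term alone. The cause was not tested.

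Over all genes, calls in DKO-severe against WT went from 8428 to 4397 with a log2 fold change of at least 1 and to 2547 with terms for B cell and neutrophil genes. In DKO-moderate against WT they went from 2734 to 1142 with an adjusted p under 0.01, to 1500 with the fold minimum, and to 1616 and 1707 without WT 1 or WT 2. Between the DKO groups they went from 3217 to 926 with an adjusted p under 0.01, 1411 with the fold minimum, 6126 with limma, 158 with terms for B cell and neutrophil genes, 1682 with the B cell term, 2055 without the 3 libraries, and 1646 to 3670 with 1 library left out. Library size alone changed the split of higher and lower calls from 4270 and 4158 to 5460 and 2756 in DKO-severe against WT. Between the DKO groups it went from 1509 and 1708 to 1886 and 1021, and to 1823 and 1237 with DESeq2 size factors.

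Libraries with the same replicate number did not deviate together (median correlation -0.03, range -0.27 to 0.21), so the numbers were not treated as pairs. With the replicate block 7, 6, and 4 of the 8 genes passed in DKO-severe against WT, DKO-moderate against WT, and DKO-severe against DKO-moderate. The few *Havcr2* reads in WT (7 to 77 per library) limit its fold.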

Other observations

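The relative spread between the 4 libraries of a group (SD over mean) in WT and DKO-severe was 61.8% and 16.8% for *Pdcd1*, 79.1% and 25.1% for *Lag3*, 53.6% and 15.7% for *Tigit*, and 26.3% and 5.85% for *Cd200*. It was 26.1% and 22.9% for *Ctla4*, 33.0% and 23.1% for *Cd160*, 9.12% and 5.15% for *Btla*, and 108% and 129.7% for *Havcr2*. The difference in spread was not tested, and the same was not computed over all genes.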
